A study of Homo sapiens with 2 samples.

Results

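The genes described are 59 genes of DNA replication and S phase entry, chosen by function: origin licensing, the replisome, nucleotide supply, E2F factors, G1/S cyclins and kinases, chromatin assembly and histone mRNA. They were found by gene symbol among the 19775 named genes of the array and are read by 114 probe sets. C4-2B, an enzalutamide-sensitive line of human prostate cancer cells, was compared with C4-2B-MDVR, a resistant line derived from it by prolonged exposure to that antiandrogen. Both lines were untreated and grew in the same medium with 10% serum, and by the labels neither received a drug before RNA was taken. Only 1 Affymetrix array per line was hybridized, which leaves no spread between replicates and no p-value or standard error for any gene. The free-text descriptions of both samples speak of docetaxel rather than enzalutamide: they call the C4-2B sample docetaxel-sensitive and name the other one TaxR, docetaxel-resistant. The cell line labels were followed for both arrays, and every difference is log2 intensity of the array labelled C4-2B-MDVR minus that of the array labelled C4-2B. Intensities written as a pair are in the order C4-2B, then C4-2B-MDVR, on the linear scale.

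A cell that commits to division passes from G1 into S phase when cyclin-dependent kinases inactivate the RB proteins and free the E2F transcription factors, which drive most replication genes. In G1 the origin recognition complex, CDC6 and CDT1 load the MCM2 to MCM7 helicase onto DNA. In S phase the kinases CDK2 and CDC7 with DBF4 turn it into the active CMG helicase by adding CDC45 and GINS, and polymerases, clamp and nucleotide enzymes then copy the genome. New DNA is packed with histones whose mRNAs are made only in S phase and processed with the help of SLBP. In prostate cancer cells androgen signalling feeds into this G1/S step, and antiandrogens commonly slow it.

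Replication genes were expressed in both lines and differed little between them, with a small lean toward lower values in C4-2B-MDVR. All 59 members lay above the detection floor on both arrays; the floor was the array's median intensity, 41.9 on the C4-2B array and 43.5 on the other. The median difference of the 59 members was −0.15 on the log2 scale, beside 0.04 over all 13437 named genes above the floor. Of the members 40 were below 0 and 19 above 0, so 67.8% were below 0, beside 44.8% of all genes. Among the 5874 genes with a mean log2 intensity of 8 or more, a group set beside the members after the data were seen, 54.2% were below 0 and the median difference was −0.04. The lower and upper quartiles were −0.32 and 0.06 for the members, beside −0.22 and 0.26 for all genes. In RNA from a whole culture, fewer cells in S phase and less RNA per cell cannot be told apart.

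No member differed by 2-fold or more. The share of all genes that were at least that much lower was 3.50%, and 3.17% were at least that much higher. In the group with a mean log2 intensity of 8 or more these shares were 3.25% and 1.62%. At 1.5-fold, 6 of the 59 members were lower: E2F7, DBF4, E2F8, E2F3, RRM2 and GINS3. That is 10.2% of the members, close to the 9.32% of all genes and the 10.4% of genes with a mean log2 intensity of 8 or more. In the other direction RPA3 was the 1 member (1.69%), beside 8.26% of all genes and 6.09% of that group. The standard deviation of the differences was 0.32 over the members and 0.60 over all genes. The value over all genes takes in extremes such as KLK3 (−5.61) and DAPK1 (6.12). The robust spread of all genes, from the median absolute deviation, was 0.35, and no such value was taken over the members. The quartiles lay closer together for the members (−0.32 and 0.06) than for all genes (−0.22 and 0.26). Of the members 32, or 54.2%, lay within 0.25 of 0 in either direction. The share was close to that, at 51.4% of all genes and 51.0% of those with a mean log2 intensity of 8 or more.

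**Figure D1:**
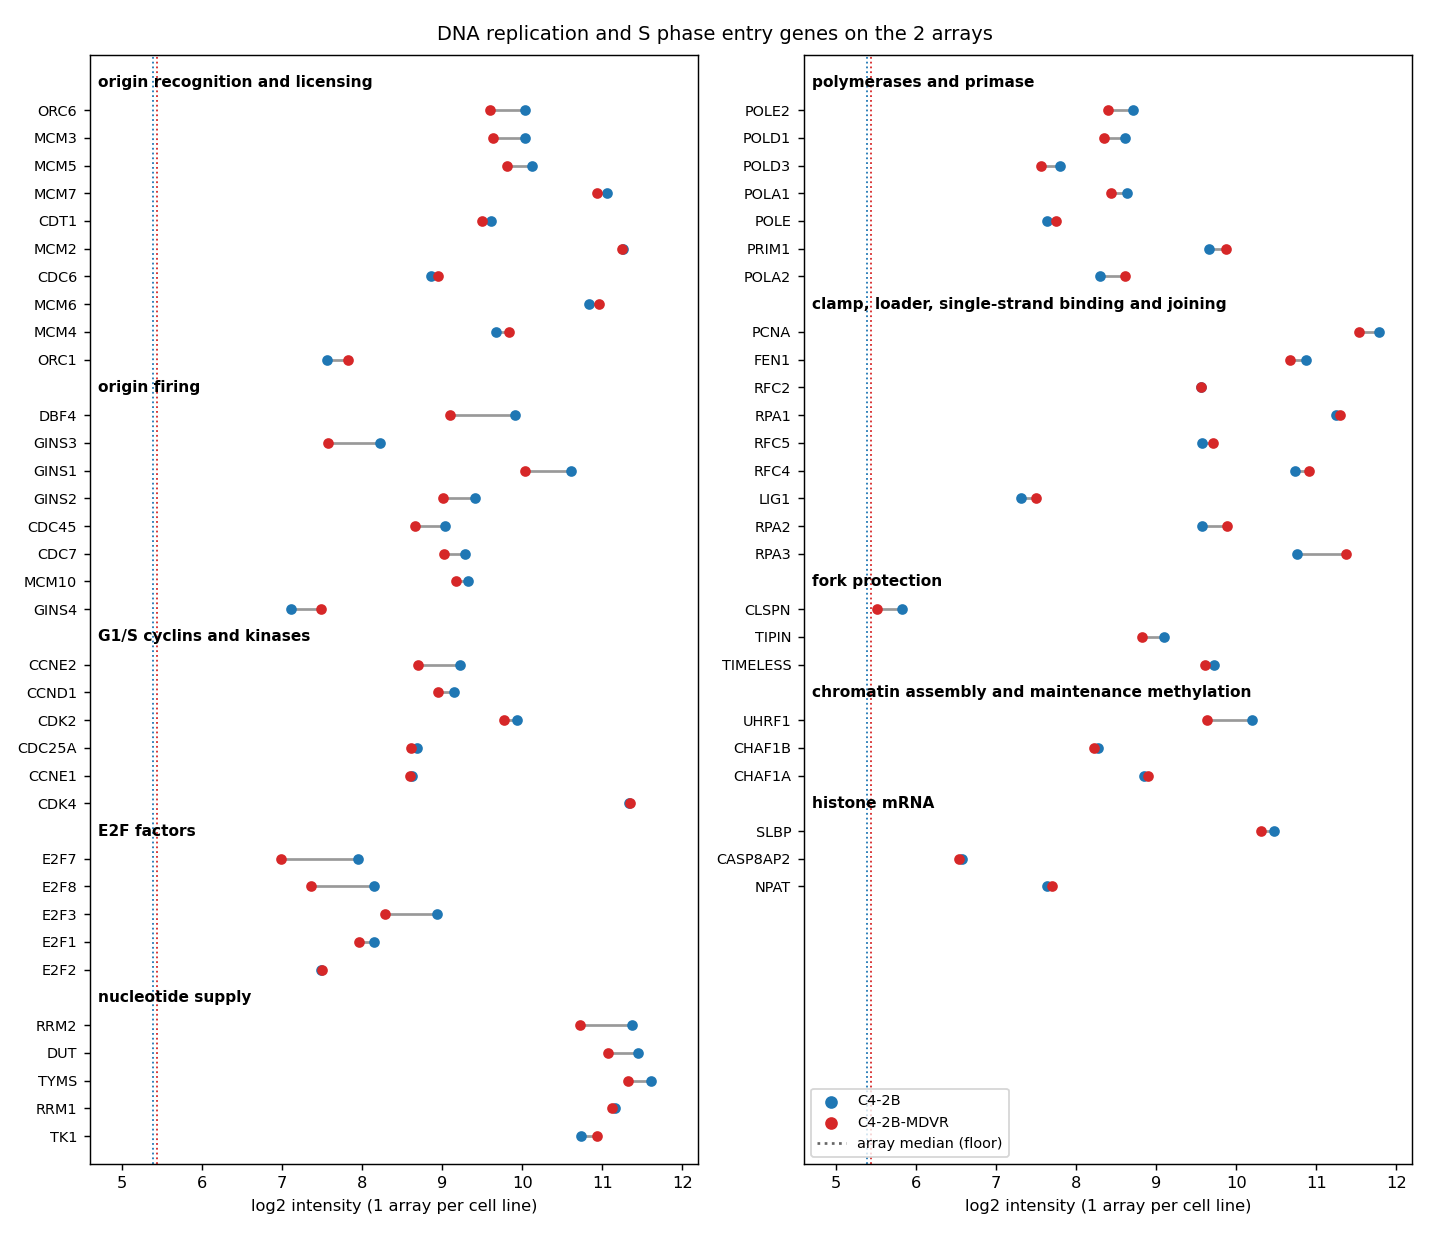
Log2 intensity of each of the 59 members on the C4-2B array (blue) and the C4-2B-MDVR array (red), by role, with 1 array per line; the dotted lines mark the array medians used as floor. The widest gaps are those of E2F7 (−0.96), DBF4 (−0.81) and E2F8 (−0.78), and every point lies to the right of its floor.

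**Figure D2:**
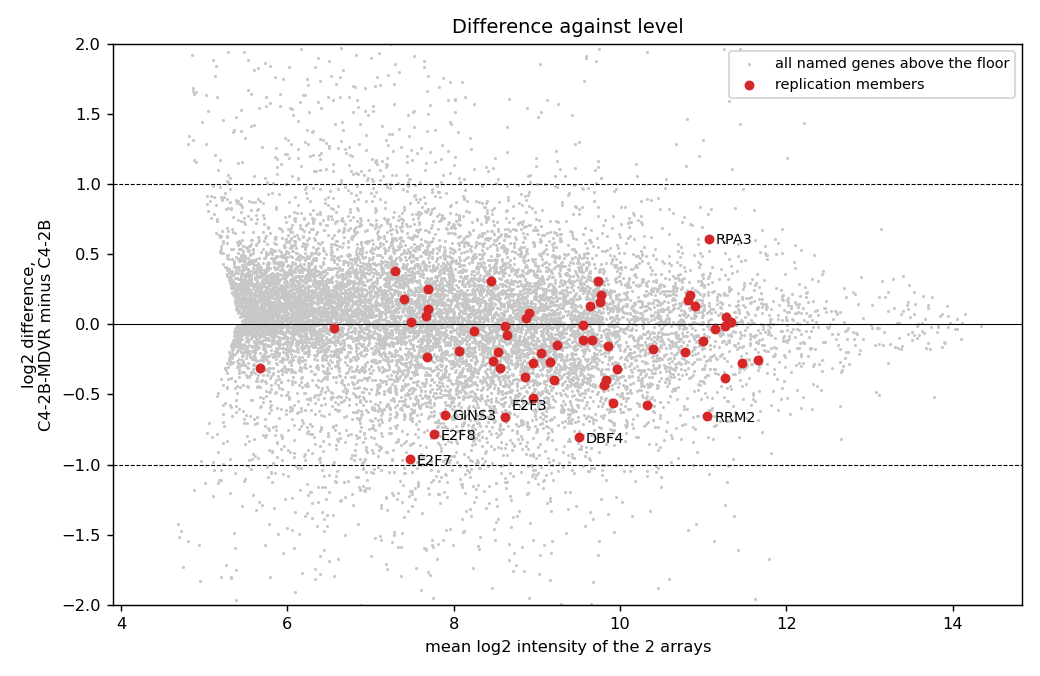
Log2 difference, C4-2B-MDVR minus C4-2B, against the mean log2 intensity for all named genes above the floor (grey) and the 59 members (red). Dashed lines mark 2-fold; the named members are those at 1.5-fold or more, and 210 grey points lie beyond the axis limit of 2 in size.

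The E2F factors had a median of −0.66 over 5 genes, lower than in the other 9 role groups in the values as deposited, and the group was divided. E2F7 and E2F8 are atypical E2F proteins that bind DNA without a DP partner and repress E2F targets late in S phase. The intensity of E2F7 was 248 in C4-2B against 127 in C4-2B-MDVR, which gives a difference of −0.96. Among the 2565 genes within 0.5 log2 units of its level, 4.76% had a difference as low or lower. A further E2F7 probe set, nearer the floor, read 47.5 in C4-2B against 59.4 in C4-2B-MDVR, a difference of 0.32, so the direction depended on the probe set. E2F8 had 1 probe set, which read 285 in C4-2B against 165 in C4-2B-MDVR (−0.78).

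The activator E2Fs, which switch on S phase genes, differed among themselves. E2F3 read 491 in C4-2B against 311 in C4-2B-MDVR, a difference of −0.66, and its other probe set differed by −0.46. Both E2F3 probe sets were lower in C4-2B-MDVR. E2F1 was at 285 and 250 (−0.19), with −0.08 in its other probe set. E2F2 was at 179 and 181 (0.02), with 0.15 and 0.30 in its other probe sets; its main value turned to −0.04 with median centring. The E2F median was −0.71 to −0.58 under the other scalings and −0.32 when a gene's probe sets were averaged, where E2F7 itself stood at −0.32 and the origin firing group was lower, at −0.46.

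Promoter sequences are shown because E2F factors act through short DNA motifs and because the members with the widest differences can then be set beside members close to 0. Promoter windows of 250 bases before and 50 after the start were matched by symbol in RefSeq (GRCh38.p14) for 49 of the 59 members. The E2F-like core was searched as TTCCCGC, its variant TTGGCGC, its variant TTGCCGC and its variant TTCGCGC, on both strands, with overlapping matches each counted. It was found in 36 of 49 members (73.5%) at the first listed start, beside 19.8% of the 10792 matched genes above the floor and 13.1% of all 27305 genes in the table. With any listed start of the gene it was 40 members (81.6%), beside 23.6% of genes above the floor. At least 2 cores were found in 18 members (36.7%), beside 3.10% of genes above the floor. CCAAT on either strand, the box bound by NF-Y, was found in 29 members (59.2%), beside 36.6% of genes above the floor. The CHR-like motif TTTGAA or TTCGAA, typical of genes expressed in mitosis, was found in 4 members (8.16%), beside 11.2%. The median difference was −0.06 over the 36 members with a core and −0.26 over the 13 without one, and over all matched genes above the floor it was 0.01 with a core and 0.04 without. For CCAAT the medians were −0.15 over the 29 members with it and −0.08 over the 20 without. A match is a stretch of letters and no evidence of binding.

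The stretches below are the 200 bases before the most upstream listed start, written 5′ to 3′ on the gene's strand, in lower case. Runs of capitals mark the E2F-like core (7 letters, more where matches overlap) and the CCAAT box or its reverse complement (5 letters). They lie at chr12:77065570-77065769 on the minus strand for E2F7, chr6:20401679-20401878 on the plus strand for E2F3 and chr7:87876293-87876492 on the plus strand for DBF4. The RRM2 stretch is chr2:10122368-10122567 on the plus strand. Of the other members at 1.5-fold, E2F8 and RPA3 had no window. The GINS3 stretch is not printed. It holds 0 cores and 0 CCAAT boxes, and 1 core begins 5 bases before the start and runs across it. For members with a difference near 0, E2F1 lies at chr20:33686386-33686585 and MCM6 at chr2:135876444-135876643, both on the minus strand.
E2F7: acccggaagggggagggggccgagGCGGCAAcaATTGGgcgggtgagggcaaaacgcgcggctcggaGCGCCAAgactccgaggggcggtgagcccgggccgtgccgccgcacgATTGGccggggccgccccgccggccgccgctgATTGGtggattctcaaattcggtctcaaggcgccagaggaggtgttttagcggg
E2F3: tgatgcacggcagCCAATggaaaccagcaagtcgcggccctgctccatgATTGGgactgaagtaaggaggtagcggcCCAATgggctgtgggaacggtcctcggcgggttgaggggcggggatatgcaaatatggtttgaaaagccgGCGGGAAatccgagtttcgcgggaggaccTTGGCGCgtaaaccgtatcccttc
DBF4: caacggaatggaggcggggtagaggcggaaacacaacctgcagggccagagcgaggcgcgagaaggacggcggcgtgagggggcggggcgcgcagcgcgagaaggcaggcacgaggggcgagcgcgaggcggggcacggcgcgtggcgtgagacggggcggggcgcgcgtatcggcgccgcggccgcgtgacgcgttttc
RRM2: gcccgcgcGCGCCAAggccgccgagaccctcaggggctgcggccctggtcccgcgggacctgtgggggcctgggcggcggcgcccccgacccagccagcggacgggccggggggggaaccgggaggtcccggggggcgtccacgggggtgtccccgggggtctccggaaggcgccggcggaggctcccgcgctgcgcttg
E2F1: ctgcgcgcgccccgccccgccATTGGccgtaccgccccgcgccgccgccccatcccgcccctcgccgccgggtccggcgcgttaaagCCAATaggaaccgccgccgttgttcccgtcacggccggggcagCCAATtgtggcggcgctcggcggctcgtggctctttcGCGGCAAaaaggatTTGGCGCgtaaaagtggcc
MCM6: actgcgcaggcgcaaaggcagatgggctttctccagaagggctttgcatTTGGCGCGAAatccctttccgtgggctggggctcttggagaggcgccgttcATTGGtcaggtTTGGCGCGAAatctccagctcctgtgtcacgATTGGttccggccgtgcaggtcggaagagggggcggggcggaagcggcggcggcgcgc
E2F3, with a difference of −0.66, has 2 cores that begin 53 and 24 bases before the start. E2F1, with −0.19, has 2 as well, at 33 and 19 bases. The MCM6 stretch, whose gene differed by 0.13, holds 4 matches in 2 overlapping pairs. In E2F7 the 2 cores lie farther off, at 176 and 133 bases, and the DBF4 stretch holds 0 cores and 0 CCAAT boxes. The RRM2 stretch holds 1 core, 192 bases before the start, and 0 CCAAT boxes. The window at its first listed start held 0 cores and 3 CCAAT boxes. RRM2 was therefore counted among the members without a core and with CCAAT. Members with a core at the first listed start ran from E2F7 at −0.96 to POLA2 at 0.31, and those without from DBF4 at −0.81 to TK1 at 0.21, so both kinds spanned most of the range.

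Origin licensing genes were nearly level between the lines. The median of the 10 genes was −0.06, with a range from −0.43 for ORC6 to 0.25 for ORC1, and 0 of the 10 reached 1.5-fold. ORC1, the largest subunit of the origin recognition complex, read 189 in C4-2B against 226 in C4-2B-MDVR. ORC6, its smallest subunit, read 1044 and 774. The loading factors CDC6 (467 and 493) and CDT1 (779 and 721) were at 0.08 and −0.11; the other CDC6 probe set was at −0.14, so CDC6 had no single direction. These 4 genes thus leaned both ways.

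The 6 subunits of the MCM helicase ring had a median of −0.07. MCM2 read 2458 in C4-2B against 2438 in C4-2B-MDVR (−0.01, and 0.03 under quantile normalization), and MCM7 was at 2129 and 1961 (−0.12). MCM3 was lowest of the 6, at 1046 and 795 (−0.40), and MCM5 was at 1117 and 894 (−0.32), with −0.25 in its other probe set. MCM6 was at 1823 and 1994 (0.13). MCM4 read 817 and 915 (0.16), but its 5 probe sets above the floor ran from −0.48 to 0.33. The subunits of this ring, which acts as 1 complex, therefore lay on both sides of 0, and for MCM4 the side depended on the probe set.

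Origin firing genes were mostly lower. Of 8 genes 7 were below 0, or 87.5%, beside 44.8% of all genes. Among genes with a mean log2 intensity of 8 or more it was 54.2%. The group median was −0.38, from −0.44 to −0.31 under the other scalings. DBF4, the regulatory subunit that activates CDC7 kinase, read 960 in C4-2B against 549 in C4-2B-MDVR, which gives a difference of −0.81. Of the 1837 genes within 0.5 log2 units of its level 5.44% had a difference as low or lower. CDC7 itself was at 626 and 520 (−0.27). The kinase subunits thus had the same sign but unequal differences.

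GINS is a complex of 4 proteins that joins CDC45 and the MCM ring. GINS1 read 1568 in C4-2B against 1053 in C4-2B-MDVR (−0.57), GINS2 read 677 and 515 (−0.40), and GINS3 read 298 and 190 (−0.65). GINS4 was higher instead, at 138 and 179 (0.38). For GINS3 a further probe set read 256 and 113, a difference of −1.18, which was beyond 2-fold. Other GINS probe sets gave −0.04 for GINS2 and at 0.10 and −0.18 for GINS4. CDC45 read 526 and 406 (−0.37). MCM10, which helps the helicase to open the duplex, was at −0.15 in the probe set that stands for it (638 and 576) and at −0.66 and −0.87 in its other 2, so its difference was wider in the probe sets not chosen. Over the 11 genes of the CMG helicase the median was −0.32, with 8 below 0, or 72.7%, beside 44.8% of all genes.

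G1/S cyclins and kinases were close to level. Cyclin D1, encoded by CCND1, pairs with CDK4 to phosphorylate RB; CCND1 read 569 in C4-2B against 493 in C4-2B-MDVR (−0.21, with 0.07 in its other probe set) and CDK4 read 2571 and 2605 (0.02, and −0.03 with median centring). Cyclin E, the partner of CDK2, is encoded by CCNE1 and CCNE2. CCNE1 was at 393 and 389 (−0.01, and 0.06 under quantile normalization). CCNE2 was at 596 and 414 (−0.52), with −0.08 in its other probe set. CDK2 read 977 and 877 (−0.16), with 0.09 in its other probe set above the floor. CDC25A, the phosphatase that activates CDK2, read 411 and 391 (−0.07), while its other probe sets gave 0.16 and −0.78. The cyclins and kinases that start S phase thus gave 0 members at 1.5-fold, and the differences of CCNE2 and CDC25A varied with the probe set.

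Among the enzymes that supply nucleotides, RRM2 stood at the low end. RRM2 encodes the small, S phase-limited subunit of ribonucleotide reductase, which makes deoxynucleotides. It read 2656 in C4-2B against 1686 in C4-2B-MDVR (−0.65), and its other probe set read 2646 and 1311, a difference of −1.01 and beyond 2-fold. Both RRM2 probe sets were lower in C4-2B-MDVR. RRM1, the large catalytic subunit, was level at 2279 and 2233 (−0.03, with 0.11 in its other probe set). TYMS, the thymidylate synthase, read 3111 and 2564 (−0.28). DUT, which removes dUTP, read 2790 and 2142 (−0.38), with −0.71 and −0.20 in its other probe sets. TK1, the thymidine kinase of the salvage pathway, was the 1 gene of this group above 0, at 1700 and 1962 (0.21), with 0.07 in its other probe set. The group median over 5 genes was −0.28.

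Polymerase and primase genes had both signs within complexes. POLA2 and PRIM1, of the polymerase alpha-primase that lays down primers, were higher at 0.31 and 0.21, and the catalytic subunit POLA1 was at 398 and 347 (−0.20). POLA2 read 315 in C4-2B against 390 in C4-2B-MDVR, and its 3 probe sets were all above 0, from 0.14 to 0.50. The probe set at 0.50 read 35.0 and 49.3, under the floor in C4-2B. It passed only through the array where it was higher, which favours a positive sign. PRIM1 read 811 and 938. Of the polymerases that copy the 2 strands, POLE, the catalytic subunit of polymerase epsilon, was at 199.8 and 215 (0.11) and its partner POLE2 at 419 and 337 (−0.31). POLD1, the catalytic subunit of polymerase delta, was at 389 and 326 (−0.26), and its accessory subunit POLD3 at 223 and 189 (−0.23). The other POLD3 probe set was at 0.03. The median of the 7 genes was −0.20, and 0 reached 1.5-fold.

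The clamp, clamp loader, single-strand binding and joining genes had a median above 0, at 0.13 over 9 genes and from 0.08 to 0.20 under the other scalings. The medians of the other 9 role groups were below 0, apart from that of chromatin assembly under quantile normalization (0.02). RPA is the 3-part complex that coats single-stranded DNA. All 3 RPA subunits were above 0, beside 7409 of all 13437 genes, with RPA1 at −0.0019 after median centring. RPA3, its smallest subunit, read 1733 in C4-2B against 2644 in C4-2B-MDVR (0.61). Of the 630 genes within 0.5 log2 units of its level 4.29% had a difference as high or higher. RPA2 read 763 and 947 (0.31) and RPA1 read 2428 and 2516 (0.05, with 0.17 and −0.15 in its other probe sets). RPA3 lay just past 1.5-fold and was just short of it with median centring, at 0.56.

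PCNA, the sliding clamp that holds polymerases on DNA, read 3527 in C4-2B against 2954 in C4-2B-MDVR (−0.26), the lowest of this group. Of the 3 loader subunits among the members, which help place it, RFC2 was at 756 and 753 (−0.01), RFC5 at 764 and 835 (0.13, with its 3 probe sets from −0.18 to 0.25) and RFC4 at 1698 and 1919 (0.18). RFC3, a loader subunit that is not among the 59, was at 1571 and 1082 (−0.54), with its 3 probe sets from −0.85 to −0.54, and RFC1 was at 599 and 566 (−0.08). FEN1, the nuclease that trims Okazaki fragments, was at 1875 and 1637 (−0.20), with −0.25 in its other probe set. LIG1, the ligase that seals them, was at 159 and 181 (0.18). By the probe set that stands for each gene these were all within 1.5-fold, and the loader subunits had both signs.

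By the probe set that stands for each gene, the 3 fork protection genes were all below 0, by little, beside 44.8% of all genes. CLSPN, the adaptor that carries the checkpoint signal from stalled forks, read 57.0 in C4-2B against 45.8 in C4-2B-MDVR (−0.31), close to the floor on both arrays. Its 3 other probe sets were under the floor and differed by 0.14, 0.10 and 0.13. The mean of the CLSPN probe sets was 0.02, so its sign depended on the probe set. TIPIN was at 547 and 452 (−0.27) and its partner TIMELESS at 844 and 779 (−0.11). In chromatin assembly, UHRF1, which guides DNA methylation to new strands, read 1174 and 794 (−0.56), while the CAF-1 subunits CHAF1A (462 and 475, 0.04) and CHAF1B (309 and 299, −0.05) were level. Both changed sign with the scaling, CHAF1A to −0.01 with median centring and CHAF1B to 0.02 with quantile normalization.

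Genes for making histone mRNA were level between the lines, while 23 of 27 measured histone genes were below 0. That is 85.2%, beside 44.8% of all genes. SLBP, which binds the stem-loop at the end of histone mRNAs, read 1425 in C4-2B against 1263 in C4-2B-MDVR (−0.17). NPAT, the cyclin E target that activates histone transcription, read 199 and 207 (0.06). CASP8AP2, needed for the same transcription, read 95.1 and 93.3 (−0.03). The median of the 3 was −0.03. Of the replication-dependent histone genes 27 passed the floor. Of these 12 were at least 2-fold lower and 0 at least 2-fold higher, beside 3.50% and 3.17% of all genes. With values below the floor set to it the counts were 11 and 0. The median of the 27 was −0.97, or −0.54 with values set to the floor in that way. Some of their probe sets, such as those of H2AC6, H2BC5, H2BC6 and H2BC9, are of the type that can share sequence with other transcripts. How far the amplified RNA held mRNAs that end in the stem-loop was not tested.

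**Figure D3:**
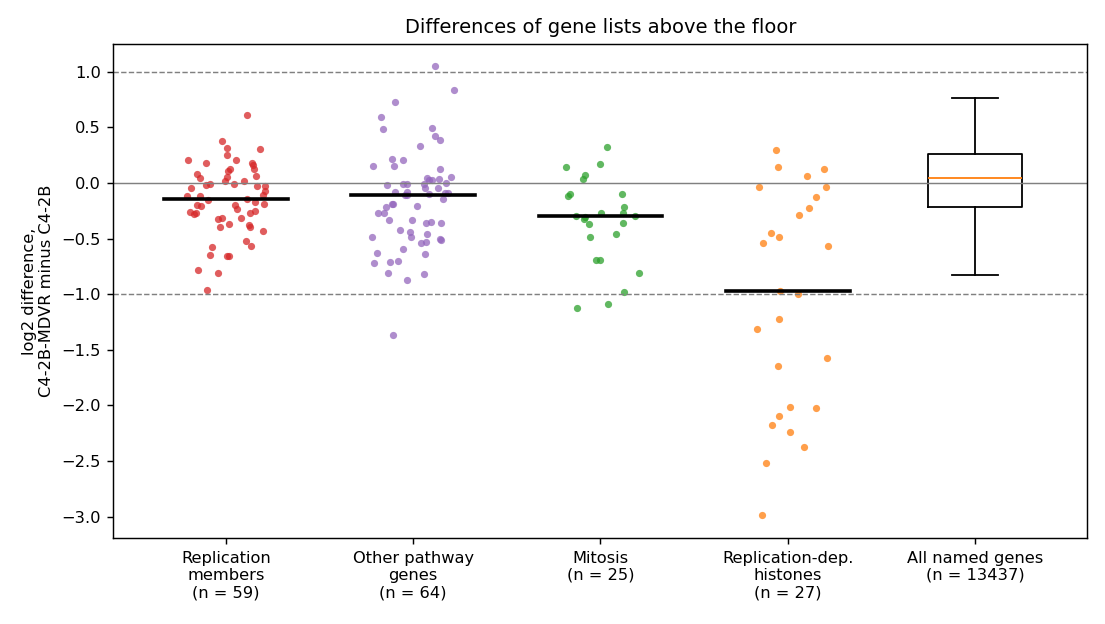
Log2 difference, C4-2B-MDVR minus C4-2B, of each gene above the floor in 4 lists (points, black bar at the median) and of all named genes (box at the quartiles, whiskers at the 5th and 95th percentile). The members centre at −0.15 inside the 2-fold lines, mitosis genes at −0.30, and histone genes reach −2.99.

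Genes of mitosis, which follow S phase, were lower by more than the replication genes in the same arrays. Their median was −0.30 over 25 genes. Of these 20, or 80%, were below 0, beside 44.8% of all genes and 54.2% of those with a mean log2 intensity of 8 or more. Beyond 2-fold were 2 genes, HMMR (−1.12) and CENPE (−1.09), both lower. At least that much lower were 3.50% of all genes and 3.25% of the brighter group. The proliferation marker MKI67 was at −0.37, and its 4 probe sets above the floor ran from −0.77 to 0.01. Both the mitosis and the histone list leaned the same way as the members, and their part in the members' differences was not tested. With 1 array per line the difference between lists has no test.

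Other genes of the pathway that are not among the 59 gave a like picture. Of 70 listed 68 had a named probe set and 64 were above the floor, with a median of −0.11. Of the 64, 44 were below 0, or 68.8%, beside 44.8% of all genes. CCNA2, encoding cyclin A2 of S and G2 phase, was the 1 gene 2-fold or more lower, at 697 in C4-2B against 270 in C4-2B-MDVR (−1.37). CDKN1A, encoding the p21 inhibitor of cyclin-dependent kinases, was the 1 gene 2-fold or more higher, at 610 and 1260 (1.05). Among all genes 3.50% were at least 2-fold lower and 3.17% at least 2-fold higher. At 1.5-fold 10 of the 64 were lower and 4 higher, or 15.6% and 6.25%, beside 9.32% and 8.26% of all genes.

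The E2F partners and their RB family inhibitors were among these. RB1 read 438 in C4-2B against 240 in C4-2B-MDVR (−0.87), with −0.24 in its other probe set above the floor, and RBL2 read 738 and 419 (−0.82), with −0.23. TFDP1, the main DNA-binding partner of E2F proteins, read 1121 and 639 (−0.81). TFDP2, its relative, was higher at 528 and 944 (0.84), but its 4 probe sets above the floor ran from −0.42 to 0.84. GMNN, the inhibitor of CDT1, was at 1451 and 887 (−0.71), and DNMT1, the methyltransferase that UHRF1 guides, was at −0.59. The other genes 1.5-fold or more lower were ORC5 (−0.64), the polymerase epsilon subunit POLE3 (−0.72), the thymidylate kinase DTYMK (−0.63) and ATAD2 (−0.70). The other genes 1.5-fold or more higher were ORC3 (0.73) and LSM11 (0.59), a part of the histone mRNA processing particle.

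Probe sets of the same gene often gave unlike differences. Of the 114 probe sets of the members 102 were above the floor, and 30 members had more than 1 of these. In 18 of the 30 all probe sets had the same sign, and in 12 both signs occurred. The range of differences within a gene had a median of 0.28, beside the members' median difference of −0.15. E2F7 was the 1 member with a range of 1 or more. Over the 102 probe sets 2 were 2-fold or more lower, 1 each for GINS3 and RRM2, and 0 were higher. Of all genes, each read by 1 probe set, 3.50% were at least that much lower and 3.17% higher.

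**Figure D4:**
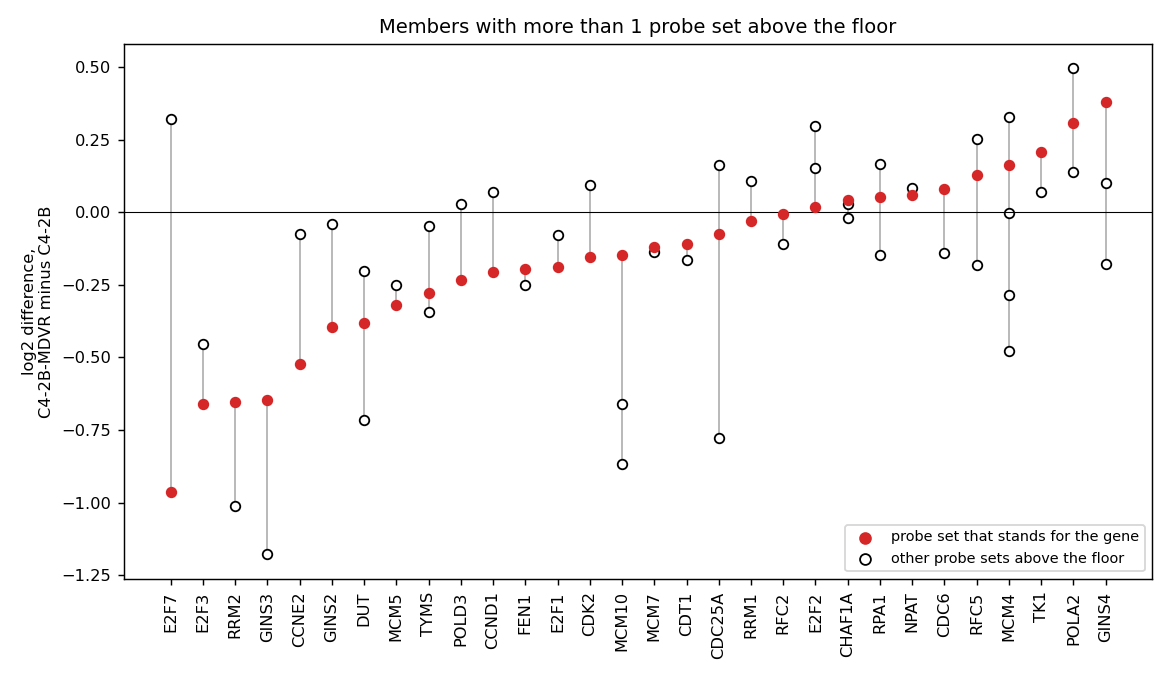
Log2 difference of every probe set above the floor for the 30 members that have more than 1, with the probe set that stands for the gene in red and the others as open circles. RRM2, GINS3 and E2F3 lie below 0 in each of their probe sets, while E2F7, MCM4 and CDC25A span 0.

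Both arrays held the marks of a prostate line. Of 9 luminal markers listed 7 had a named probe set and all 7 were above the floor, with summed intensities of 17972 in C4-2B against 8744 in C4-2B-MDVR. The gap lay mostly in KLK3, the gene for prostate-specific antigen, at 8379 and 172. Fibroblast markers summed to 419 and 388 over 6 genes, 3 of them above the floor, and blood and endothelial markers to 330 and 348 over 7 genes, 4 above it. The 3′ minus 5′ control probe set difference, a gauge of RNA integrity, was 0.30 in C4-2B against 0.26 in C4-2B-MDVR for GAPDH and 0.74 and 0.52 for ACTB. The part of these gauges in the members' differences was not tested.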

How the data were processed

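Total RNA from 1 culture sample of each line was extracted with Trizol, amplified, labelled with biotin and hybridized, per the labels' protocols. The authors deposited 1 intensity per probe set, whose range is that of a linear scale. How they corrected, normalized and summarized the probes is not stated in the labels or the table. The table holds 54675 probe sets and 0 other sample columns. The log2 of each deposited intensity was taken here without further scaling.

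Gene names came from GEO's platform annotation of 2016 (41097 with 1 gene symbol, 1801 with several and 11777 unnamed here), with symbols updated by Entrez identifier against RefSeq. Those with several symbols named no gene. Each gene was represented by its probe set of highest mean log2 value. A gene was above the floor when its brighter value reached that array's median. Differences of 2-fold or more, or 1.5-fold or more, were counted. No test was possible with 1 array per line, and depth has no meaning for an array beyond their number.

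Members, lists and thresholds were chosen with earlier results of these data known. Members were described with both intensities when they were 1.5-fold or more apart, among the 6 of highest mean intensity, at the ends of their role group, or read by probe sets that differed by 1 or more; others so described were chosen after their values were seen. Promoter motifs were counted in RefSeq windows of GRCh38.p14; no other coordinates are given. Alternatives covered the scaling (each array centred on its median, quantiles equalized, or a loess curve of span 0.3), floors, probe set rules and thresholds. Only the 2-fold call was tested on simulated data, with shifts beyond 2-fold and noise narrower than the spread of the real differences. Smaller differences, the other scalings, role group medians and promoter counts were not simulated. Python 3.11.15, numpy 2.4.6, pandas 2.3.3, statsmodels 0.14.6 and matplotlib 3.10.9 were used.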

Additional observations from a re-analysis of the deposited data

How the results depend on the processing

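The median difference of the members stayed below 0 in all 10 alternatives run, from −0.20 with median centring to −0.08 with quantile normalization, and lay below the median of all genes by 0.14 to 0.20 in the 9 that give both. The count of members below 0 ran from 36 to 44. The count of members 2-fold or more lower was 0, but 1 with median centring (E2F7), 2 without probe sets that share sequence (RRM2 and GINS3) and 6 with a threshold of 1.5-fold; the count higher was 0, and 1 with that threshold. At 1.5-fold, counted after the data were seen, 4 to 8 members were lower, with GINS3, DBF4, E2F8 and RRM2 among them in each of the alternatives. RPA3 was not 1.5-fold higher with median centring. Of 279 single-member values under an alternative 13, in 9 members, moved by more than 0.35, the robust spread of all genes, and all 13 came from another probe set or the mean of probe sets. With 1 array per line no replicate could be left out, and the cause of these shifts was not tested. The 9 members CCNE1, CDK4, CHAF1A, CHAF1B, E2F2, MCM2, RFC2, RPA1 and RRM1 changed sign under at least 1 other scaling. CLSPN and CASP8AP2 were under a floor at the 75th percentile, and under the floor with the mean of probe sets, which left 57 members in each. Without probe sets that share sequence, TIMELESS, CHAF1A and CASP8AP2 were under the floor, which left 56. The counts below 0 in these 3 alternatives were 38, 40 and 39.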

Other observations

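Among pathway genes outside the 59, 37 had more than 1 probe set above the floor. In 6 of them a probe set lay at least 0.5 below the one that stands for the gene (WDHD1, FBXO5, FBXW7, RBL1, TFDP2 and CDKN2A), and in 4 a probe set lay at least 0.5 above it (RB1, RBL2, TFDP1 and CCND2). WDHD1, a replisome adaptor, was at −0.34, with probe sets down to −1.37. RBL1, an RB relative, was at −0.15, with probe sets down to −1.24. FBXO5, an inhibitor of the anaphase-promoting complex, was at −0.11 and in another probe set at −0.61, and the CDK inhibitor CDKN2A at −0.01 and −0.71. In the other direction CCND2, encoding cyclin D2, was at 0.22 and in another probe set at 0.82, and TFDP1 was at −0.81 with probe sets up to −0.30. SAMHD1, which degrades deoxynucleotides, was at 0.13 with probe sets from −0.18 to 0.61. SKP2, a ubiquitin ligase subunit that degrades CDK inhibitors, was at −0.48 with probe sets down to −0.83. MYC, an inducer of S phase genes, read 2903 in C4-2B against 4097 in C4-2B-MDVR (0.50) in 1 probe set.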
